A study of Mus musculus with 6 samples.

Results

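Immediate early response genes are switched on within minutes of a growth factor, cytokine or stress signal, without new protein synthesis, and are switched off again soon after. Of these genes, 9 were followed here by name: Ier3, Ier2, Fos, Jun, Junb, Jund, Egr1, Atf3 and Btg2. All 9 of 9 were present among the 12826 genes of the deposited table, and all 9 were among the 10914 genes whose mean over the libraries reached 1 FPKM (sequenced fragments per transcript length and library size). A gene could reach that mean through 1 domain alone, as Ier3 did through the anterior and Junb through the posterior libraries. The genes were chosen from the posterior and anterior values of these same libraries, so their differences between the domains are given as a description with no test.

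The libraries came from 3 mouse ETX-embryos, called A, B and C, embryo-like structures that form in culture when stem cells of the embryo proper, the trophoblast and the extraembryonic endoderm (XEN) are mixed. Wherever 3 values follow each other, they are those of embryos A, B and C in that order. All 3 were grown in sequential IVC media, received no treatment and carried a GFP reporter of T/Brachyury, a transcription factor of the primitive streak. The trophoblast part was removed, the embryonic part was cut lengthwise, and the GFP-negative piece was taken as prospective anterior and the GFP-positive piece as prospective posterior. Each piece gave 1 Smart-seq2 library, so there were 3 anterior and 3 posterior libraries of single structures, and the groups differed in no genotype or agent. Mouse strain, cell line names and the age of the structures in culture are not given in the sources used here.

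Growth factor signals reach these genes through the ERK kinase cascade and through factors already bound at their promoters, chiefly serum response factor with its ETS partners, and CREB. Fos and Jun proteins then pair to form the AP-1 transcription factor, Egr1 is a zinc finger activator, and feedback phosphatases and RNA-binding proteins end the response. In the gastrulating mouse embryo FGF signalling through ERK is active in the epiblast and primitive streak. Ier3 encodes a small protein linked to cell survival and to prolonged ERK signalling, and it is also a target of NF-kB.

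Several facts about the libraries touch every result. T was listed at 0, 0 and 42.5 FPKM in the anterior libraries, and its posterior levels were 5.03, 15.6 and 0 FPKM. Embryo C therefore went against its labels for T, the gene whose reporter defined the pieces. Other streak markers followed the labels in C, such as Mixl1 at 0 against 4.97 and Wnt3 at 0.92 against 6.15 in log2(FPKM + 1), and 8 of the 10 tested streak markers, T not among them, had all posterior libraries above all anterior ones. In what follows, "anterior C" and "posterior C" mean the libraries so labelled. By an estimate of relative depth the anterior libraries were the shallower ones, at 1 to 1.43 against 1.56 to 2.82 in the posterior ones. Not all pairs of libraries fitted this estimate. Genes above 0 overlapped in number, at 9335 to 11082 anteriorly against 10260 to 12141 posteriorly. Gene by gene, posterior minus anterior had a median of 0.43 in log2(FPKM + 1) over all 10914 genes and the 3 embryos. In the single embryos this median difference was 0.91, 0.02 and 0.17. The library medians of these genes were 2.51, 3.44 and 2.86 anteriorly and 3.50, 3.37 and 3.41 posteriorly. In embryo B the anterior library thus had the higher median. The 12 measured visceral endoderm markers had anterior sums of 740.5, 956 and 125 FPKM, against posterior sums of 135, 209 and 135 FPKM, and 11, 11 and 3 of the 12 were above 0 anteriorly against 10, 12 and 8 posteriorly. In anterior C Ttr and Rbp4 were at 0 (Rbp4 also in posterior C), whereas Lrp2 was at 6.75 and Foxa2 at 4.22 in log2(FPKM + 1). The 10 epiblast markers had anterior sums of 35.9, 82.5 and 304 FPKM, against posterior sums of 411, 219.7 and 393 FPKM. The part of depth and of cell makeup in the results was not tested. In whole pieces, fewer cells of a type and less RNA per cell cannot be told apart.

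Per transcript length, the members ranked by their mean over the 6 libraries from Btg2 at 61.6 FPKM, Ier2 at 50.5 FPKM and Fos at 46.1 FPKM down to Junb at 6.42 FPKM and Jund at 6.34 FPKM. Between them lay Atf3 at 19.2, Ier3 at 18.7, Egr1 at 15.9 and Jun at 10.3 FPKM. Neighbours in this order were not separable, because the range of each gene over the 6 libraries overlapped that of the next. The order also changed from library to library. Without posterior C the mean of Fos was 13.0 FPKM, below Ier3 at 22.5 and Atf3 at 15.6 FPKM, and that of Jun was 5.90 FPKM. Ier3 ranked second, first and second among the 9 in the anterior libraries.

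**Figure D1:**
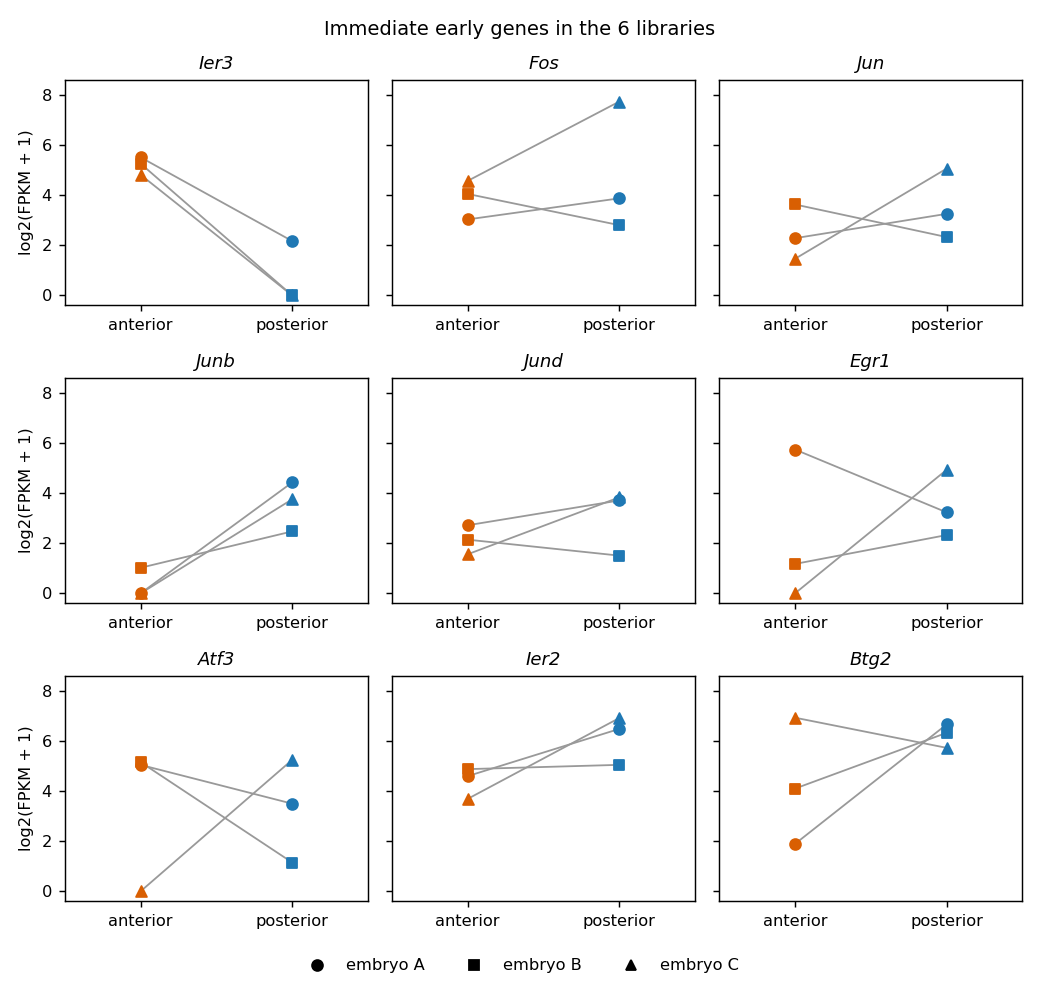
Level of each of the 9 genes as log2(FPKM + 1) on the vertical axis in the anterior (orange) and posterior (blue) library of each embryo (A circles, B squares, C triangles), with a line joining the pieces of 1 embryo. Ier3 falls along all 3 lines, Junb and Ier2 climb along all 3, and each of the other genes has lines that go both ways.

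Ier3 was the member with the clearest difference between the domains. Its anterior levels were 44.5, 37.3 and 27.1 FPKM, whereas in the posterior libraries it was at 3.49 FPKM in embryo A and listed at 0 in B and C. The 3 anterior libraries lay close together, above 77.5% to 88.7% of the genes in the table, and the groups did not overlap. On the log2(FPKM + 1) scale the anterior mean was 5.19 ± 0.35 (SD, n = 3) and the posterior mean 0.72 ± 1.25 (SD, n = 3). Posterior minus anterior was -3.34, -5.26 and -4.81, with a mean of -4.47 ± 1.00 (SD, n = 3). Ier3 was the 1 member of 9 with all anterior values above all posterior ones, a state found in 3.77% of all tested genes, and the 1 member lower in the posterior piece of 3 of 3 embryos, as were 8.25% of all tested genes. Both shares are printed for scale only, since Ier3 was picked on this difference. The second share was 18.1% after quantile normalization. Of the 10 tested visceral endoderm markers, 1, Lrp2, likewise had all anterior values above all posterior ones. It was at 6.17, 6.51 and 6.75 against 3.06, 3.33 and 4.91 in log2(FPKM + 1). The other markers did not share this pattern: 5 of the 10 had the higher mean in the posterior pieces, and Ttr and Rbp4 were at 0 in anterior C. The part of that tissue in the values of Ier3 was not tested. Without embryo C the mean was -4.30, and after quantile normalization the 3 embryos gave -4.60, -5.32 and -4.57.

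A listing at 0 can be a failed estimate, and so the frequency of such zeros was counted. Ier3 was chosen as high in the anterior and low in the posterior libraries, so these counts describe how rare its zeros are and do not bear on what they stand for. Between 4.5 and 6 in log2(FPKM + 1) in all 3 anterior libraries, the stretch that holds Ier3, lay 265 genes. Of these, 0, 1 and 2 were at 0 in the posterior libraries of A, B and C. Ier3 was the 1 gene of the 265 at 0 in 2 or more posterior libraries. Among the 2038 genes at 4 or more in all 3 anterior libraries, 10 were at 0 in at least 1 posterior library and 2 in at least 2, namely Ier3 and Ankrd37, a hypoxia-induced gene.

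Fos, the partner that lets Jun proteins form their most active AP-1 dimer, did not follow Ier3. Its anterior levels were 7.18, 15.5 and 22.7 FPKM, against posterior levels of 13.6, 5.97 and 211.5 FPKM. The posterior C value stood far above the other 5, which overlapped between the domains. The pieces of the 3 embryos differed by 0.84, -1.25 and 3.16 in log2(FPKM + 1), with a mean of 0.92 ± 2.21 (SD, n = 3). The mean turned to -0.20 without embryo C and to -0.55 without posterior C alone, so its sign rested on that library.

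Jun, the founding AP-1 subunit, had its embryo differences in the same order as Fos. Anterior levels of Jun were 3.86, 11.4 and 1.75 FPKM, and posterior ones 8.53, 4.02 and 32.3 FPKM. Again posterior C was highest and the groups overlapped. Posterior minus anterior was 0.97, -1.30 and 3.60 in log2(FPKM + 1), with a mean of 1.09 ± 2.45 (SD, n = 3), and the mean was -0.16 without embryo C. With the medians of the libraries set equal, embryo A turned to -0.15 for Fos and -0.02 for Jun.

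Junb, a Jun relative that is a weaker activator and often opposes Jun, differed from Jun in its pattern. It was listed at 0, 1.03 and 0 FPKM in the anterior libraries, against posterior levels of 20.5, 4.55 and 12.5 FPKM. All 3 posterior libraries lay above all anterior ones, also after quantile normalization and with medians set equal. The difference of posterior to anterior was 4.42, 1.45 and 3.75 in log2(FPKM + 1), with a mean of 3.21 ± 1.56 (SD, n = 3), and 2.94 without embryo C. Junb and Ier2 were the 2 members with all posterior values above all anterior ones, as were 12.3% of all tested genes, and the 2 members higher in the posterior piece of 3 of 3 embryos, as were 21.5% of all tested genes.

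Jund, the Jun protein that is made more constantly than the other two, had anterior levels of 5.58, 3.41 and 1.95 FPKM and posterior levels of 12.1, 1.84 and 13.2 FPKM. It was higher in the posterior piece in embryos A and C and lower in B. Its difference was 0.99, -0.64 and 2.27 in log2(FPKM + 1), with a mean of 0.87 ± 1.46 (SD, n = 3), and 0.18 without embryo C.

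The makeup of the Jun family differed between the domains in its Junb share. The 3 Jun genes had anterior sums of 9.44, 15.8 and 3.70 FPKM and posterior sums of 41.1, 10.4 and 58.0 FPKM, and these sums overlapped between the domains. Junb held 0%, 6.51% and 0% of the anterior sums and 49.9%, 43.7% and 21.5% of the posterior ones. The Junb share did not overlap between the domains, whereas the share of Jun, 40.9%, 71.9% and 47.3% anteriorly against 20.8%, 38.6% and 55.7% posteriorly, did. The ratio of Fos to the Jun sum was 0.76, 0.98 and 6.14 anteriorly and 0.33, 0.57 and 3.65 posteriorly. In each domain the ratio was highest in embryo C, and within each embryo it was lower in the posterior piece.

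**Figure D2:**
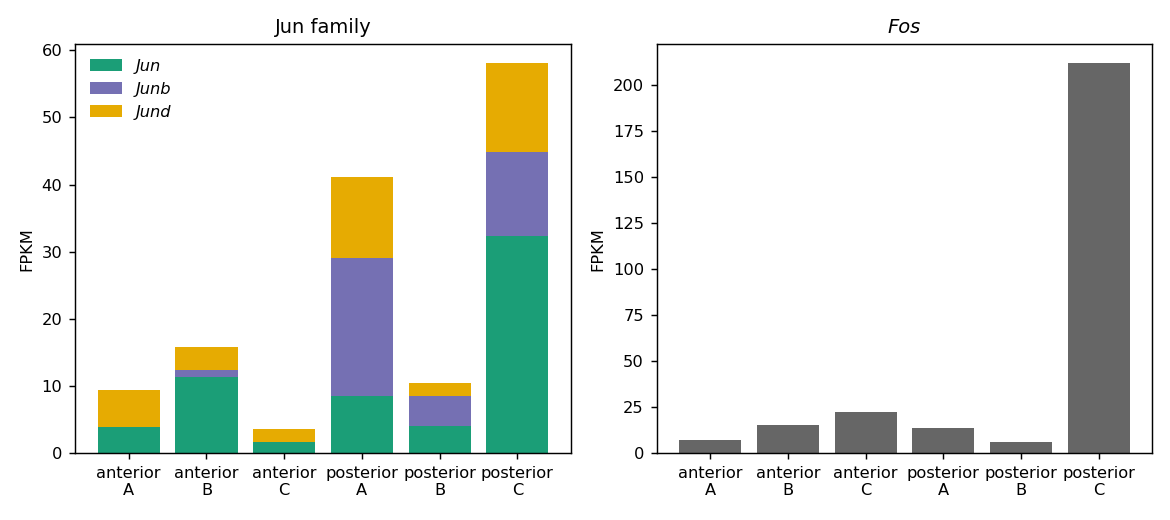
FPKM of Jun (green), Junb (purple) and Jund (yellow) stacked in each of the 6 libraries on the left, and of Fos in the same libraries on the right, both on linear axes that start at 0. Junb is absent or thin in the 3 anterior bars and holds 21.5% to 49.9% of the posterior ones, and Fos stands out in posterior C at 211.5 FPKM.

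Egr1, a zinc finger factor induced by ERK and a marker of recent growth factor signalling, had the widest spread of the members within the anterior libraries (SD 3.03 in log2(FPKM + 1), n = 3), followed by Atf3 (SD 2.94, n = 3). Anterior levels of Egr1 were 52.3, 1.26 and 0 FPKM, and its posterior levels were 8.39, 4.02 and 29.4 FPKM. Anterior A was the highest library and anterior C the lowest. Posterior minus anterior was -2.51, 1.15 and 4.93 in log2(FPKM + 1), with a mean of 1.19 ± 3.72 (SD, n = 3), which turned to -0.68 without embryo C.

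Atf3, a CREB-family factor induced by stress and by growth factors, had anterior levels of 32.0, 34.6 and 0 FPKM and posterior levels of 10.3, 1.22 and 36.9 FPKM. Its pieces went one way in embryos A and B and the opposite way in C. From anterior to posterior it differed by -1.55, -4.00 and 5.24 in log2(FPKM + 1), with a mean of -0.10 ± 4.79 (SD, n = 3), and -2.78 without embryo C. Atf3 was at 0 in anterior C, as were Egr1 and Junb. Of the 12 measured visceral endoderm markers, 11, 11 and 3 were above 0 anteriorly and 10, 12 and 8 posteriorly. Atf3 did not follow these counts in the posterior libraries. It was at 1.22 FPKM in posterior B, with 12 above 0, and at 36.9 FPKM in posterior C, with 8. The part of that tissue in the values of Atf3 was not tested. In embryos A and B, Atf3 was thus the 1 other member lower in both posterior pieces, as Ier3 was.

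Ier2, a small nuclear protein with no DNA-binding domain of its own, had anterior levels of 23.2, 28.3 and 11.9 FPKM and posterior levels of 88.1, 32.0 and 119.6 FPKM. It was above 0 in every library and never below 11.9 FPKM. The excess in the posterior pieces was 1.88, 0.17 and 3.23 in log2(FPKM + 1), with a mean of 1.76 ± 1.53 (SD, n = 3), and 1.03 without embryo C. The gap in embryo B was small, and the groups overlapped after quantile normalization and with medians set equal, though the posterior piece stayed the higher one in all 3 embryos.

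Btg2, an antiproliferative protein induced by Trp53 and by growth factors that recruits the deadenylase complex to RNAs, had anterior levels of 2.71, 16.1 and 120.5 FPKM and posterior levels of 99.7, 78.9 and 51.8 FPKM. The posterior libraries lay close together and the anterior ones were spread widely, with anterior C the highest of all 6. Its posterior minus anterior values were 4.76, 2.22 and -1.20 in log2(FPKM + 1), with a mean of 1.93 ± 3.00 (SD, n = 3), and 3.49 without embryo C. It was the 1 gene of the 8 besides Ier3 that was lower in the posterior piece of embryo C.

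**Figure D3:**
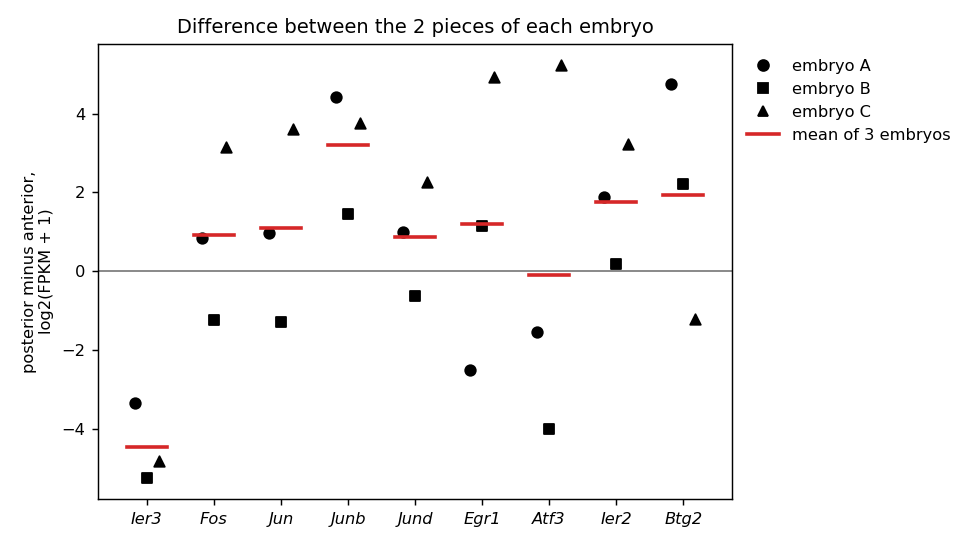
Posterior minus anterior difference in log2(FPKM + 1) on the vertical axis for each gene and embryo (A circles, B squares, C triangles), with a red bar at the mean of the 3. The 3 points of Ier3 lie between -5.26 and -3.34, and those of Atf3 and Egr1 reach from below -2 to above 4.

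Whether Ier3 stands apart from Fos, Jun and Egr1 can be read within each library, where depth and scale are shared. Ier3 minus the mean of Fos, Jun and Egr1 was 1.82, 2.31 and 2.80 in log2(FPKM + 1) in the anterior libraries, whereas the posterior ones had -1.28, -2.49 and -5.91. Ier3 was thus above the mean of the 3 in every anterior library and below it in every posterior one. Posterior minus anterior of this quantity was -3.11, -4.79 and -8.71, with a mean of -5.54 ± 2.87 (SD, n = 3). The mean of Fos, Jun and Egr1 itself differed by -0.23, -0.46 and 3.90. In embryos A and B it lay near 0 while its genes went opposite ways, Fos and Jun against Egr1. Egr1 was lower in the posterior piece of embryo A, as Ier3 was, and in anterior A it stood above Ier3, at 52.3 against 44.5 FPKM. The mean of the quantity was -3.95 without embryo C and -4.20 without posterior C alone.

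Set against all 8 other members the split was the same. Ier3 minus their mean was 2.35, 1.99 and 2.54 anteriorly, whereas posteriorly it was -2.22, -2.99 and -5.40. Of the 8, 6, 4 and 7 were higher in the posterior piece of A, B and C, and their median difference was 0.98, -0.23 and 3.41. In embryos A and B these medians lay near the 0.91 and 0.02 of all tested genes, and in embryo C the median of the 8 lay above the 0.17 of all tested genes. Over the 3 embryos the median of the 9 means was 1.09 and that of the 8 without Ier3 1.14, against 0.43 for all tested genes.

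The members were also compared in pairs over the 6 libraries, which repeats the domain values on which they were chosen. Pearson's r of Ier3 with the 8 others was below 0 for 7 of 8, from -0.80 with Junb to 0.10 with Atf3. By ranks several of these lay near 0, with Spearman coefficients of 0.03 for Egr1 and Atf3, -0.06 for Jund and -0.12 for Fos. Among the 8 others r was below 0 for 4 of 28 pairs, with a median of 0.54, from -0.67 for Atf3 with Btg2 to 0.92 for Ier2 with Junb. These values describe 6 libraries that share embryos, domains and depth differences.

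The tested genes most like Ier3 over the 6 libraries were Tmod1 (r = 0.98), Dlx3, Rexo1, Tstd2, Pla2g2d, Pfkfb3, Jmjd6 and Gdpd1 (all r = 0.96 to 0.97). Tmod1, which caps actin filaments, had anterior levels of 6.31, 5.87 and 5.94 and posterior levels of 5.26, 4.79 and 4.88 on the log2(FPKM + 1) scale. Pfkfb3, a glycolytic regulator induced by hypoxia, was at 4.32, 4.17 and 4.76 against 1.21, 0.92 and 0 on that scale, and of these 8 genes it came nearest to Ier3 in the size of its difference. Those most like Fos were a row named Gtf3c2Mpv17, Prkce, Safb and Brd2. Those most like Jun were Rufy1, Zfp319, Slc9a5 and Akt1s1, and those most like Egr1 were Mansc1, BC030867, Pros1 and Trim39 (all r = 0.98 to 1.00). No gene appeared in more than 1 of these 4 groups of names. Each name is the best of 10914 candidates over 6 points that share embryos and depth.

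Differences among the 3 embryos had no part in the choice of the members and could be tested. With limma's F test of the embryo terms in the fit over all genes, 0 of 9 members passed after Benjamini-Hochberg adjustment (adjusted p = 0.996 to 0.998), and 0% of all tested genes did. At an unadjusted p under 0.05 the counts were 0 of 9 members and 302 genes, or 2.77% of all tested genes. The lowest unadjusted p among the members was that of Fos, at 0.0788 in limma's F test, with embryo means of 3.45, 3.42 and 6.15 in log2(FPKM + 1) for A, B and C. The fit had 2 residual degrees of freedom.

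On GRCm38 (GENCODE), the 8 members placed here have 1 to 4 exons. Ier3 lies on chromosome 17 at 35821684 to 35822923 on the plus strand with 2 exons, Fos on chromosome 12 at 85473890 to 85477273 on the plus strand with 4 exons, and Jun on chromosome 4 at 95049034 to 95052222 on the minus strand with 1 exon. Junb, Jund and Ier2 each have 1 exon in the 1 transcript counted per gene. They lie on chromosome 8, at 84974484 to 84978718, 70698949 to 70700616 and 84661331 to 84662852. The gene span of Junb, 4235 bases, is longer than its counted transcript of 1809 bases. Atf3 has 4 exons and Btg2 has 2, and both lie on chromosome 1, at 191170296 to 191218039 and 134075170 to 134079120. The library method does not mark strand, and 4 members overlap a gene on the opposite strand: Jun overlaps Junos by 689 bases, Jund overlaps Gm11175 by 919, Junb overlaps Prdx2 by 351 and Atf3 overlaps Gm24748 by 108. These overlaps were taken over whole gene spans, introns included. Reads from shared exon bases could not be told apart, but whether exons overlap was not tested. For Ier3, Fos and Ier2 no such overlap is annotated.

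The promoters of Ier3, Fos, Jun and Junb are shown because Ier3 and Junb carry the clearest differences and Fos and Jun are the genes Ier3 was set against. RefSeq promoters (GRCm38.p6) matched 7 of 9 members. Each run ends at the base before the RefSeq start of transcription, except that of Ier3, which stops 29 bases earlier because GENCODE places those bases within the gene. Capitals mark matches to the motifs named after the sequences. Ier3 is chr17:35821463-35821683 on the plus strand, Fos chr12:85473640-85473889 on the plus strand, Jun chr4:95052223-95052472 on the minus strand and Junb chr8:84978749-84978998 on the minus strand, each read 5′ to 3′ on the strand of its gene.
Ier3: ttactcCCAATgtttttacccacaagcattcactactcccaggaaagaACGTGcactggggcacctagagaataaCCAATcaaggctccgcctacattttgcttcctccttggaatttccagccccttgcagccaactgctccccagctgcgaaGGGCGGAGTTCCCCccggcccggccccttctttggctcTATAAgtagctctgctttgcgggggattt
Fos: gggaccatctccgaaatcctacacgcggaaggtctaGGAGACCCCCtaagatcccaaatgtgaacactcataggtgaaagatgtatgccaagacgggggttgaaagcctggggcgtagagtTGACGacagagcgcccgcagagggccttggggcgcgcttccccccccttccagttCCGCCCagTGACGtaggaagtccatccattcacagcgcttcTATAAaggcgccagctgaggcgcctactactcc
Jun: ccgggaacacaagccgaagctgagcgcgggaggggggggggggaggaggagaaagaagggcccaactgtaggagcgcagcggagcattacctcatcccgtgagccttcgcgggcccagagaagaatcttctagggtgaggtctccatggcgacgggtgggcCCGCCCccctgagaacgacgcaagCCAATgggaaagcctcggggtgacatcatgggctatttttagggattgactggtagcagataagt
Junb: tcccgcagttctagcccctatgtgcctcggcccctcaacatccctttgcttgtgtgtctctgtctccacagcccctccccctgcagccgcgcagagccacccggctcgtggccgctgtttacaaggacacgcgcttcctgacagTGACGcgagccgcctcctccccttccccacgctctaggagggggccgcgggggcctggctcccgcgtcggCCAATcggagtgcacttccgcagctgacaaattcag

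The motifs were chosen after the sequences had been seen and were searched in the 250 bases before the start, in 32851 RefSeq promoters. Both strands were searched, except for the TATA box core, which was searched on the strand of the gene alone. Ier3 and Fos hold a TATA box core (TATAA), which 16% of all promoters do, starting at -58 and -33 from the RefSeq start of transcription. For Ier3 that start, 35821713, lies 29 bases inside the gene as GENCODE places it. The Ier3 motifs are thus 29 bases nearer to the GENCODE start than the positions given here. Ier3, Jun and Junb hold the CCAAT box (CCAAT), as do 33.8% of all promoters, and Ier3 has 2 copies. The core of the cyclic AMP response element (TGACG, in 17.8% of all promoters), to which CREB and Atf3 proteins bind, is in Fos with 2 copies and in Junb with 1. Its full form (TGACGTCA, in 1.55% of all promoters) is in Btg2 alone of the 7, where it contains the core. The GC box (GGGCGG, in 32.7%) is in Ier3, Fos and Jun of the 4 shown, and the NF-kB site (in 9.55%) is in Fos and in Ier3, where its first bases overlap the GC box. The core of the hypoxia response element (ACGTG, in 16.6%) is in Ier3, starting at -202, and among the 7 also in Jund. For Jund the RefSeq start, 70697739, lies at -1210 from the GENCODE start of the gene, 70698949. Its window thus does not adjoin the gene as placed above, here and in the counts over the 7. The AP-1 site (TGANTCA, in 6.75%), the Egr site (GCGTGGGCG, in 0.536%), the ETS site (CCGGAA, in 12%) and the CArG box of serum response factor (in 1.47%) had 0 matches among the 7 members within this window. Egr1 and Ier2 had no matched promoter, and bases further upstream were not searched, so sites there would have been missed.

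Short-lived RNAs often carry AUUUA repeats in the 3′ UTR, where Zfp36 proteins bind. Ier3 had 5 in its 613 bases, or 8.16 per kilobase, the highest density of the 9. Fos followed with 4 (4.91 per kilobase) and Junb with 2 (4.12 per kilobase). Ier2 had 0, and the remaining 5 lay between 1.64 and 3.24 per kilobase, against a median of 1.40 per kilobase over 9381 tested genes with a 3′ UTR. A longer form of the repeat, the nonamer of 9 bases, was in Fos alone of the 9, with 1 copy, and Ier3 had 0. Among the 9381 tested genes 8.27% had the nonamer. Binding of Zfp36 proteins was not tested.

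The rest of the early response gave a setting for the members. Over all genes, limma with the embryo as a block called 0% after adjustment (lowest adjusted p = 0.211), and at an unadjusted p under 0.05 the calls were 790 genes (7.24%) with more RNA in the posterior pieces and 86 (0.788%) with more in the anterior ones. After quantile normalization these 2 counts were 513 and 315. The shares of all tested genes higher and lower in the posterior piece of every embryo, 21.5% and 8.25% as deposited, were then 14% and 18.1%. In none of the lists that follow did a gene pass after adjustment, so counts and medians are given as description. They were not tested as sets.

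Relatives of Fos and Jun and the small Maf factors had 6 of 10 listed genes tested. Of the 6, 2 were higher in the posterior piece of 3 of 3 embryos (Mafk and Atf2), 0 were lower, against 21.5% and 8.25% of all tested genes, and the median difference was 1.21 in log2(FPKM + 1). After quantile normalization the count of 2 was 0, against 14% of all tested genes. Fosl2, a Fos relative, had anterior levels of 0.08, 2.83 and 2.85 and posterior levels of 3.78, 1.66 and 3.86 on the log2(FPKM + 1) scale, with embryo B against the other two as for Fos and Jun.

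Other immediate early transcription factors had 13 of 20 tested, of which 3 (23.1%) were higher in the posterior piece of 3 of 3 embryos and 0 lower, near the 21.5% and 8.25% of all tested genes, with a median of 0.72. Ier5, a relative of Ier2, was at 0.91, 0.21 and 0 against 1.89, 3.34 and 3.29 in log2(FPKM + 1), anterior values first. Ier5 and Nfil3 were the 2 of 13 with all posterior values above all anterior ones, as were 12.3% of all tested genes. Klf4, a zinc finger factor of pluripotent and endodermal cells, went with Atf3: it was at 6.28, 6.83 and 2.35 against 3.61, 3.41 and 5.11, lower in the posterior piece in A and B and higher in C. Klf6 was nearly level, at 4.57 to 5.89 in the 6 libraries.

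Other immediate early effectors had 14 of 20 tested, of which 5 (35.7%) were higher in the posterior piece of 3 of 3 embryos and 0 lower, against 21.5% and 8.25% of all tested genes, with a median of 0.63. Sgk1, a kinase of ion transport and survival, was at 4.71, 3.30 and 0.15 against 5.66, 6.62 and 5.74 in log2(FPKM + 1). Sgk1 and Sik1 were among the 3 of 14 with all posterior values above all anterior ones, as were 12.3% of all tested genes. Nfkbia, the NF-kB inhibitor that is itself an NF-kB target as Ier3 is, was at 5.98, 5.98 and 6.69 against 6.09, 5.77 and 7.58 and so did not share the pattern of Ier3.

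Genes of feedback on the early response showed the largest median of these lists, 1.71, with 7 of 13 tested genes higher in the posterior piece of 3 of 3 embryos (21.5% of all tested genes were) and 0 lower. After quantile normalization the count was 6, against 14% of all tested genes, and without embryo A the median was 0.83. Dusp6, the phosphatase of ERK, was at 4.80, 4.53 and 6.27 against 7.37, 7.11 and 6.63 in log2(FPKM + 1). Spry4, an inhibitor of FGF receptor signalling, was at 0.39, 0 and 0 against 3.67, 3.19 and 3.14. Zfp36l2, a decay factor of AUUUA-bearing RNAs, was at 2.43, 4.75 and 3.39 against 6.09, 6.68 and 5.24. None of the 3 overlapped between domains, and the same held for Dusp4 and Spred2. All posterior values lay above all anterior ones in 12.3% of all tested genes. Dusp1 and Zfp36, which are induced along with Fos, did overlap: Dusp1 was at 3.99, 2.24 and 4.05 against 3.39, 3.29 and 1.39, and Zfp36 at 0, 2.18 and 0.38 against 0.58, 2.39 and 4.78.

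Kinases and factors upstream of the response had 16 of 18 tested, 4 (25%) higher and 1 (6.25%) lower in the posterior piece of 3 of 3 embryos, near the 21.5% and 8.25% of all tested genes, with a median of 0.50 that fell to -0.19 without embryo A. Mapk8, a kinase of Jun, did not overlap, at 1.70, 1.85 and 0.28 against 3.23, 3.23 and 3.18 in log2(FPKM + 1). In the family of Btg2, with 4 of 5 tested, members parted. Btg1 was lower in every posterior library, at 6.52, 8.02 and 6.50 against 5.03, 5.54 and 5.24. Tob1 and Tob2 were higher in every one. Over all tested genes, 3.77% had all anterior values above all posterior ones, and 12.3% had the reverse.

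Lists for stress that also induces Atf3, Btg2 or Ier3 gave mixed values. In the integrated stress response, 9 of 11 were tested. Of these, 2 (22.2%) were higher and 2 (22.2%) lower in the posterior piece of 3 of 3 embryos. Over all tested genes these shares were 21.5% and 8.25%. Ddit3, a target of Atf4, was at 5.47, 5.55 and 5.83 against 1.83, 2.64 and 5.33 in log2(FPKM + 1), and Ddit4, an inhibitor of mTORC1 that hypoxia also induces, at 4.66, 5.45 and 5.48 against 4.36, 2.63 and 3.18. Both were lower in every posterior library, as Ier3 was, and Asns was higher in every one. All anterior values lay above all posterior ones in 3.77% of all tested genes, and the reverse held in 12.3%. Of 9 tested Trp53 targets, 0 moved one way in all 3 embryos, and Cdkn1a was at 6.34 to 7.67 in the 6 libraries. Of 9 tested heat shock genes, 1, Dnajb1, was higher in every posterior library.

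The list in which most genes shared the direction of Ier3 was that of hypoxia-induced genes, a response that was known for these libraries before the list was drawn up. All 15 were tested, 8 were lower (8.25% of all tested genes were) and 0 higher in the posterior piece of 3 of 3 embryos, and the median was -1.06, against 0.43 over all tested genes. At an unadjusted p under 0.05 in limma, 5 of 15 were lower and 0 higher, against 0.788% and 7.24% of all tested genes. Because the list was drawn up with this response known, its counts do not test it, and the shares are given for scale only. Vegfa, the vascular growth factor, was at 5.12, 5.31 and 5.26 against 2.62, 3.23 and 2.54 in log2(FPKM + 1), and Adm, a vasodilator peptide, at 7.13, 4.70 and 6.63 against 3.67, 2.61 and 0.45. Vegfa, Adm, Pfkfb3, Egln3 and Ankrd37 had all anterior values above all posterior ones, as did 3.77% of all tested genes. Without embryo A 12 of 15 were lower in each remaining posterior piece, as were 20.6% of all tested genes, and without embryo C 9 of 15, as were 18.7%.

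**Figure D4:**
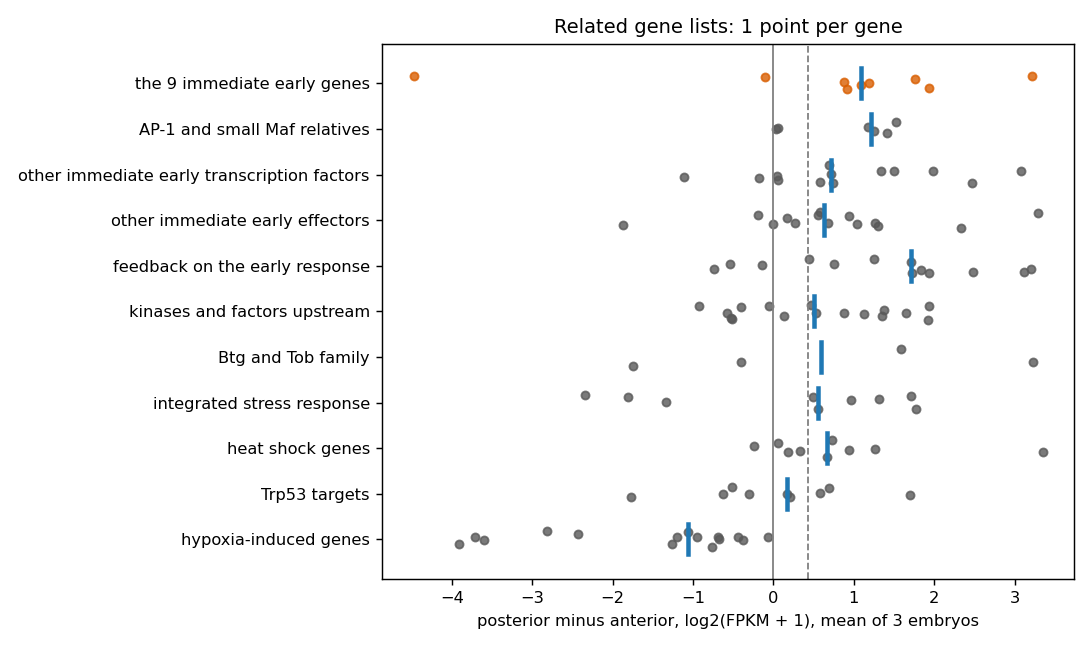
Mean posterior minus anterior difference in log2(FPKM + 1) over the 3 embryos on the horizontal axis, 1 point per tested gene, for the 9 members (orange) and the related lists (grey), with a blue bar at each median, a solid line at 0 and a dashed line at the median of all tested genes (0.43). Ier3 is the leftmost orange point at -4.47, and the hypoxia-induced genes have the one list median below 0, at -1.06.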

How the data were processed

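RNA from 6 pieces of 3 ETX-embryos was made into Smart-seq2 libraries with 18 preamplification cycles, sequenced on a HiSeq 2500 and mapped to Ensembl 38.77, per the labels' protocols, which give HTSeq-count for counting. TopHat2 2.0.4, Cufflinks 2.0.2 and mm10 appear in the submitters' processing notes. The tool behind the deposited values, and any further normalization, are not given in the sources used here. From the authors there is 1 deposited table of 12826 genes whose values are log2(FPKM + 1), read from the values themselves, and these deposited log2 values were used unchanged. FPKM was taken back from them as 2 to the value minus 1.

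A mean of 1 FPKM or more was required (10914 genes), and limma 3.58.1 in R 4.3.3 was run with a block for the embryo, a trend of variance on level and two-sided tests, with Benjamini-Hochberg adjustment over all of them and a threshold of 0.05. The F test among embryos came from the same fit, which was tested on simulated data. The pairing comes from the dissection. Deviations from the group means, compared between the pieces of 1 embryo, had correlations of -0.07, 0.04 and -0.03 in A, B and C. The members and gene lists were chosen with earlier results of these data known. Genes named are the 9 members, the 8 genes most correlated with Ier3 and the 4 most correlated with each of Fos, Jun and Egr1, and from each list some of the 4 highest by mean level and of those whose groups do not overlap. Klf4, Klf6, Fosl2, Nfkbia, Mafk and Atf2 entered by level, and Dusp1, Zfp36 and the cell type markers were named after their values were seen. Absolute depth is unknown. Relative depth came from the steps that whole reads leave in low values, on which 6.68% to 13.9% of low genes lay. Of 15 pairs of libraries, 12 fitted it within a tolerance of 0.05 in log2. The remaining pairs got no weight: anterior B with posterior A (residual 1.01) and B (1.008), and posterior A with C (-1.005). Taken alone, the offsets of anterior B with posterior A and B, 0.365 and 0.004, did not make anterior B the shallower library. The alternatives tried were other pseudocounts, filters and scalings, no block, and leaving out embryos or libraries.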

Additional observations from a re-analysis of the deposited data

How the results depend on the processing

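The mean of Ier3 minus the mean of Fos, Jun and Egr1 (-5.54) kept its sign under all 13 alternatives tried, from -8.28 with a pseudocount of 0.1 FPKM to -3.45 with one of 5 FPKM, and from -6.75 to -3.95 when 1 embryo was left out. Other filters, no replicate block and equal library medians left it at -5.54, but these settings cannot change this quantity and are no check of it. The paired and unpaired fits both called 0 genes. The differences of Ier3, Ier2, Junb, Jund and Btg2 kept their sign under all 13, while Fos changed sign under 2, Jun and Egr1 under 1 and Atf3 under 4. Of the 13, the filters and the lack of a block could not change the differences of single members either. The size for Ier3 and Junb depended on the pseudocount, at -6.76 and 5.57 with 0.1 FPKM and at -2.77 and 1.61 with 5 FPKM. Between domains 1 gene, Mir682, passed after adjustment without anterior C and with no block. Among embryos 3 genes passed with no filter on low values, 3 after quantile normalization and 3 with medians set equal (Rbp4, Snora31 and Snord8 each time), and leaving out 1 embryo gave 0 to 4 (4 without embryo A: Snord8, Snora81, Mir181b-2 and Mir669a-2). None of the genes that passed is one of the 9, and they were named after their values were seen. The causes of these changes were not tested. Leaving out posterior C, and leaving out embryos in the lists, were chosen after seeing the data.

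The fit had 3 embryos and 2 residual degrees of freedom. Relative depth was 1 and 1.43 in anterior A and C, where Junb was listed at 0 (and Egr1 and Atf3 in C), and 2.82 and 1.56 in posterior B and C, where Ier3 was listed at 0.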
